A study of Mus musculus with 8 samples.

Results

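Cdkn1a, Phlda3, Mdm2, Bax, Ccng1, Trp53inp1, Zmat3, Aen, Eda2r and Sesn2 are direct target genes of the transcription factor p53, and their transcript levels were compared between mouse pancreases with and without a deletion of Gata6 that is given in the sample labels. The members were found by gene symbol. All 10 were among the 36432 gene IDs of the deposited tables, each under 1 ID, and all 10 were among the 11860 genes that were tested. p53 is held at a low level by the ubiquitin ligase Mdm2, and is stabilised by DNA damage, ribosomal stress and other insults. It then binds response elements made of a pair of decamers and switches on genes of cell cycle arrest, DNA repair, metabolism and apoptosis. It also switches on Mdm2, so that its own response is limited. In the pancreas p53 is best known as a suppressor of ductal cancer.

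Whole pancreases came from 8 mice of mixed strain, 6 to 8 weeks old. The 4 controls had the genotype Ptf1a-Cre +/KI, in which the gene for Cre recombinase sits at the Ptf1a locus, so that 1 Ptf1a allele carries it. That locus is active in pancreatic progenitors and in acinar cells, and recombination is limited to cells that have expressed it and to their descendants. The other 4 mice had the same Cre allele and were also Gata6 lox/lox, the genotype meant to remove Gata6, a GATA-family transcription factor needed for pancreas development. They are called labelled libraries 1 to 4 here, since Gata6 did not fall in them. Gata6 was at 2.49 ± 0.279 among controls and 4.74 ± 0.432 among labelled libraries (mean ± SD, n = 4 each; rescaled FPKM), higher in 4 of 4, with a limma adjusted p of 0.0443. That measurement counts all exons of the gene and cannot show whether the floxed segment was missing, so it is no check of the deletion.

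Levels are given as rescaled FPKM, the deposited FPKM (fragments per kilobase of transcript, scaled per library) divided by 100000, so levels of different genes can be compared per length. The depth, as the number of fragments whose counting error would give the deposited intervals (implied fragments), was 6020901 to 7304521 fragments among controls and 4815873 to 7451554 among labelled libraries. These totals leave out the 8 genes that lacked an estimate in at least 1 library. Such genes numbered 6 to 8 in each control and 0 to 6 in each labelled library. The titles of control 1 and labelled libraries 1, 3 and 4 begin with BKD, and these 4 libraries expressed the Y-linked gene Eif2s3y at 5.34 to 13.7. The titles of controls 2 to 4 begin with ASK and that of labelled library 2 with BSH, and these 4 expressed Xist at 17.3 to 32.0. Of these, control 3 also had Eif2s3y at 0.281, while the others had it at 0. What the prefixes stand for is not given, and both prefix and sex are unequally divided between the genotypes. Labelled libraries 1 and 3 stood apart in their acinar genes, as described below with the cell markers.

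Every one of the 10 p53 target genes had a higher mean in the labelled libraries, by 1.35 to 9.54 times. Cdkn1a and Phlda3 rose, with a limma Benjamini-Hochberg adjusted p of 0.0363 each, and no member fell. Both calls were lost when any 1 control, or labelled library 1 or 3, was left out (adjusted p = 0.0791 to 0.169). These 2 of 10 stand beside a background of 0.219% of all tested genes called higher and 0.194% called lower. At an unadjusted p under 0.05, 9 of 10 members were higher (background 17.9%) and 0 lower (background 12.2%). The groups did not overlap for 6 of 10 members, all higher (background 10.9%), and for 0 that were lower (background 7.62%). The median log2 fold change was 0.93 over the 10 members and 0.10 over all genes tested. Eda2r and Sesn2 reached the required mean of 1 over the 8 libraries only through the labelled group (control means 0.434 and 0.86), so their place in these counts is partly fixed by that filter. In whole tissue, more cells that express a gene and more RNA per cell cannot be told apart.

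**Figure D1:**
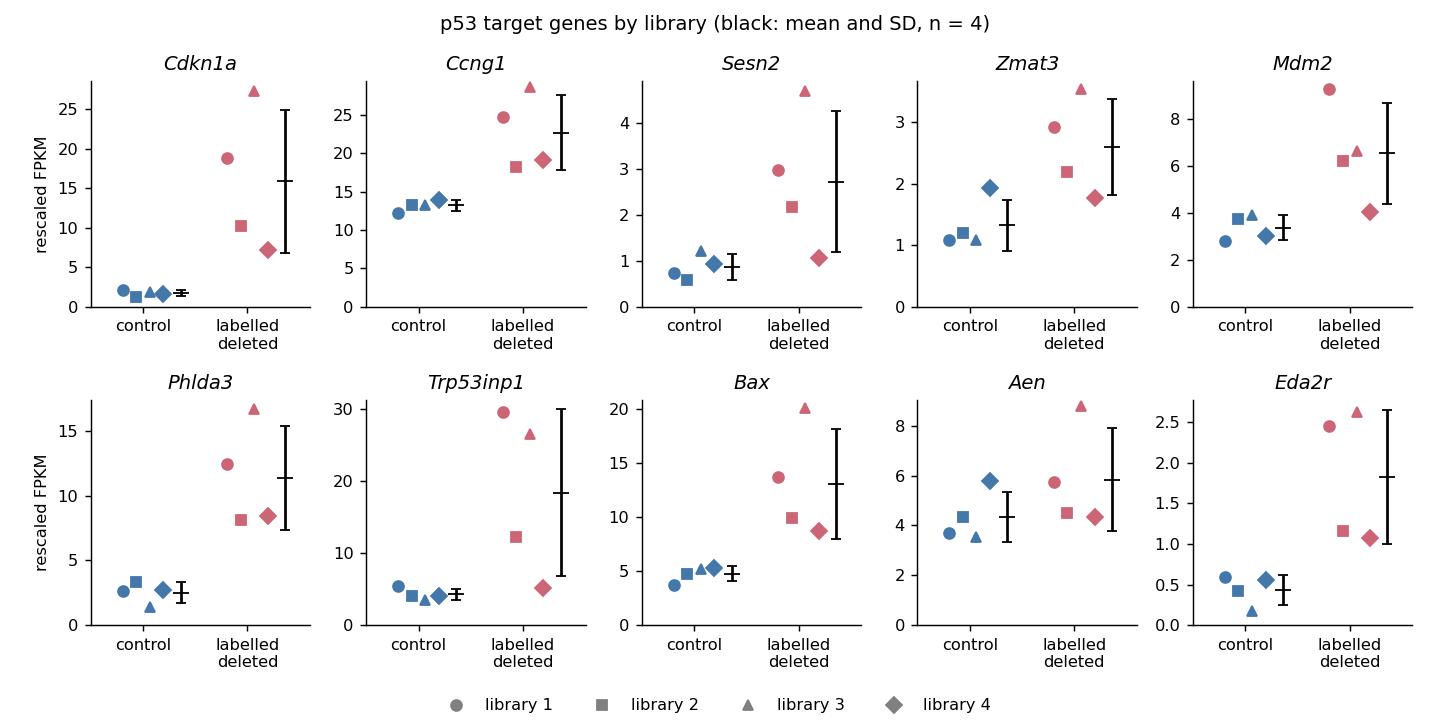
Level of each of the 10 p53 target genes in each library, in rescaled FPKM on axes that start at 0; symbols mark libraries 1 to 4 of each group, and black bars the mean and SD (n = 4). All 4 labelled libraries lie above every control for Cdkn1a, Phlda3, Mdm2, Bax, Ccng1 and Eda2r, while for Aen only labelled library 3 does.

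Sequence upstream of the start site was taken from RefSeq windows on GRCm38.p6, 250 bases before to 50 bases after each start, for 8 of the 10 genes (10 windows). The windows were searched for the p53 response element consensus, a palindromic pair of decamers that reads alike on both strands, with a spacer of at most 1 base and at most 3 mismatches outside the fixed C and G of each decamer. Those limits were chosen after the windows were seen. Such a pair lay in the windows of 4 of the 8 members (Cdkn1a, Ccng1, Bax and Aen), against 3.27% of the 27025 genes with a window. The members were listed as direct p53 targets, so the counts here are a description and no test. A pair with at most 1 mismatch lay in 0.11% of all 32851 windows, and Cdkn1a and Ccng1 have one each. An exact decamer lay in the windows of 5 members (Cdkn1a, Mdm2, Bax, Ccng1 and Aen), against 9.55% of genes. The 3 upstream stretches and the single match that follow are shown because they are the members' matches to the element that p53 binds. Capitals mark the matched pair, and each strand is that of the gene. A match describes letters and is not a measured binding site, and no binding was measured here.
Cdkn1a, chr17:29090729-29090978 (plus strand): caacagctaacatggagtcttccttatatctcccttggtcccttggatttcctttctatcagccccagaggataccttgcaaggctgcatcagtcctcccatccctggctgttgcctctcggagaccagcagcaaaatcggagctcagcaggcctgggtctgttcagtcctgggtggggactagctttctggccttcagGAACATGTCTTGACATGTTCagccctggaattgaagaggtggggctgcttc
Ccng1, chr11:40755287-40755536 (minus strand): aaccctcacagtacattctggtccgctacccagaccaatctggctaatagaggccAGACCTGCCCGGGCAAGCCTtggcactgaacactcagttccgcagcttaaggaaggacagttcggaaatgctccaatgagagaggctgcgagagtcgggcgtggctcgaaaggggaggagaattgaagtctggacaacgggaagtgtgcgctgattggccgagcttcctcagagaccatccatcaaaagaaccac
Bax, chr7:45466899-45467148 (minus strand): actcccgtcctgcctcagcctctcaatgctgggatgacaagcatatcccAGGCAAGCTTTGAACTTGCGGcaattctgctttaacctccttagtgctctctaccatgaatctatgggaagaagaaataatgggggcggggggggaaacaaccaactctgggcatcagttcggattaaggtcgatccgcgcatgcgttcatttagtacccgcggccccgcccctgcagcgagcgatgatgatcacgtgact
Aen, chr7:78895937-78895956 (plus strand): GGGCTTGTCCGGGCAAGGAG
The Cdkn1a match begins 51 bases before the upstream of the gene's 2 start sites and has 1 mismatch. The second start lies 2790 bases further along, and the match ends 2822 bases before it. The Ccng1 match begins 195 bases before the start, with 1 mismatch, and the Bax match 201 bases before it, with 2 mismatches and a spacer of 1 base. The Aen match, with 3 mismatches, begins 121 bases before one start and at base 11 after the other. The windows of Phlda3, Mdm2, Sesn2 and Eda2r do not hold such a pair of letters. Sequence outside the windows was not searched, so these genes may hold a pair elsewhere.

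Gene loci below are on mm9, the build of the deposited tables. Among the members that act on cell division and growth, Cdkn1a had the largest difference of the 10. Cdkn1a (ENSMUSG00000023067, chr17:29227924-29237667) encodes p21, which binds and inhibits cyclin-dependent kinases (CDKs) and is the main effector of p53 arrest. Controls 1 to 4 had 2.08, 1.21, 1.78 and 1.59 rescaled FPKM of it and labelled libraries 1 to 4 had 18.9, 10.2, 27.3 and 7.16. The lowest labelled library was well above the highest control, and the labelled libraries also differed more among themselves than the controls did. The means were 1.67 ± 0.362 and 15.9 ± 9.09 (SD, n = 4 each), a ratio of 9.54, for a log2 fold change of 2.51 (SE 0.36) and a limma Benjamini-Hochberg adjusted p of 0.0363. That change lay at percentile 99.4 of all genes tested. Only 5.83 to 18.1 implied fragments stood behind each control value, against 74.2 to 1070 behind the labelled ones.

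Ccng1 (ENSMUSG00000020326, chr11:40562054-40568813) encodes cyclin G1, a p53 target that takes part in the control of Mdm2. It was at 12.2, 13.3, 13.2 and 13.9 among controls and at 24.7, 18.2, 28.6 and 19.1 among labelled libraries. It was the most abundant member per length in 7 of the 8 libraries, and its groups did not overlap. Its log2 fold change was 0.72 (SE 0.18), which missed the threshold (adjusted p = 0.0987), on 94.8 to 2030 implied fragments per value.

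Sesn2 (ENSMUSG00000028893, chr4:132047947-132066416) encodes a sestrin, a stress protein that restrains the growth kinase mTORC1 and is also a target of the transcription factor ATF4. Its level was 0.724, 0.578, 1.21 and 0.929 among controls and 2.98, 2.17, 4.7 and 1.05 among labelled libraries. Labelled library 4 lay below control 3, so the groups overlapped. The log2 fold change was 0.92 (SE 0.30, adjusted p = 0.116). The locus overlaps the predicted gene Gm12981, which was at a mean of 0.046 and at most 0.297, and no other member's locus overlaps another entry.

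Zmat3 (ENSMUSG00000027663, chr3:32233718-32264600) encodes an RNA-binding zinc finger protein that acts on the stability and splicing of transcripts. It was at 1.09, 1.19, 1.08 and 1.93 among controls and at 2.92, 2.19, 3.54 and 1.76 among labelled libraries. Control 4 was above labelled library 4 and apart from the other controls. The log2 fold change was 0.62 (SE 0.20, adjusted p = 0.114), on as few as 7.58 implied fragments in a control.

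The members that feed back on p53 or act on its partner pathways were Mdm2, Phlda3 and Trp53inp1. Mdm2 (ENSMUSG00000020184, chr10:117125944-117147814), the ligase that marks p53 for degradation, was at 2.8, 3.72, 3.91 and 3.02 among controls and at 9.31, 6.22, 6.63 and 4.02 among labelled libraries. All labelled libraries were above all controls, but labelled library 4 only by 4.02 against 3.91. The log2 fold change was 0.75 (SE 0.22, adjusted p = 0.106).

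Phlda3 (ENSMUSG00000041801, chr1:137662696-137665713) encodes a small protein with a pleckstrin homology domain that competes with the survival kinase AKT for membrane lipids and so represses it. Its level was 2.61, 3.35, 1.36 and 2.68 among controls and 12.5, 8.11, 16.7 and 8.47 among labelled libraries. The groups were well apart, with labelled libraries 1 and 3 again the highest. The means were 2.5 ± 0.832 and 11.4 ± 4.02 (SD, n = 4 each), a ratio of 4.58, and the log2 fold change was 1.81 (SE 0.27, adjusted p = 0.0363), at percentile 98.5. The control values rest on 5.88 to 11.3 implied fragments each and the labelled ones on at least 31.8.

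Trp53inp1 (ENSMUSG00000028211, chr4:11083578-11101526) encodes a stress protein of the nucleus and of autophagosomes whose expression is lost in pancreatic cancer. It was at 5.36, 4.0, 3.51 and 4.1 among controls and at 29.6, 12.2, 26.6 and 5.2 among labelled libraries. Labelled libraries 1 and 3 were the highest by far, while labelled library 4 lay within the controls' range, below control 1. The ratio of means was 4.34, close to that of Phlda3, but the spread was wider. The log2 fold change was 1.64 (SE 0.47), and it missed the threshold (adjusted p = 0.106).

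The members that act in apoptosis were Bax, Aen and Eda2r. Bax (ENSMUSG00000003873, chr7:52717065-52722268), whose protein permeabilises the outer mitochondrial membrane, was at 3.75, 4.72, 5.19 and 5.32 among controls and at 13.7, 9.96, 20.1 and 8.75 among labelled libraries. The groups did not overlap. The ratio of means was 2.77 and the log2 fold change 1.24 (SE 0.25), at percentile 95.4, with an adjusted p of 0.0813, the smallest among the members that missed the threshold.

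Aen (ENSMUSG00000030609, chr7:86040740-86056095) encodes apoptosis-enhancing nuclease, an exonuclease that digests DNA in dying cells. It was at 3.7, 4.35, 3.54 and 5.77 among controls and at 5.73, 4.48, 8.78 and 4.35 among labelled libraries. Labelled library 3 alone was above every control. The log2 fold change was 0.33 (SE 0.22, adjusted p = 0.322), the smallest of the 10.

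Eda2r (ENSMUSG00000034457, chrX:94529179-94572555) encodes a receptor of the TNF receptor family for an isoform of ectodysplasin. It was the least abundant member in the controls, at 0.593, 0.416, 0.175 and 0.554, and was at 2.46, 1.16, 2.63 and 1.07 among labelled libraries. The groups did not overlap. The difference ran the same way among the libraries high in Eif2s3y (0.593 in control 1 alone against 1.07 to 2.63). It also did among those with Xist (0.175 to 0.554 against 1.16 in labelled library 2 alone), where the 0.175 is from control 3. The log2 fold change was 0.94 (SE 0.25, adjusted p = 0.103). A control value rests on 0.662 to 7.02 implied fragments, so the control level is known only roughly.

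**Figure D2:**
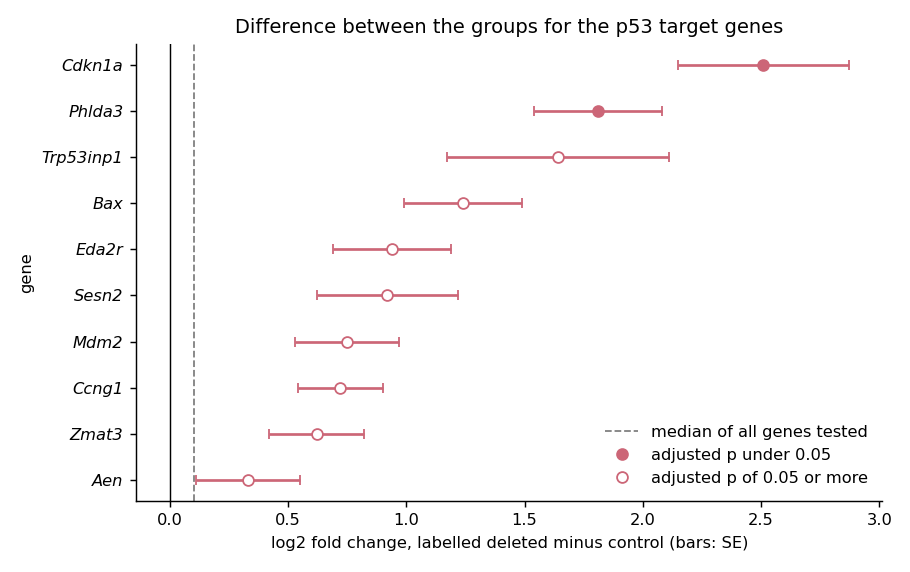
Log2 fold change of each member, labelled minus control, on the log2(rescaled FPKM + 1) scale (horizontal axis), with its standard error as bars; filled points passed an adjusted p of 0.05. The members run from 2.51 for Cdkn1a to 0.33 for Aen, all to the right of the median of all genes tested at 0.10 (dashed).

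The size of the difference varied with the library as well as with the gene. The median member stood 1.27, 0.76, 1.49 and 0.39 above the control mean in labelled libraries 1 to 4 (log2 scale), and between -0.10 and 0.09 in the controls. Labelled library 3 was the highest of the labelled libraries for 8 members and labelled library 1 for the other 2, while labelled library 4 was the lowest for 8 and labelled library 2 for the other 2. Members above every control numbered 9, 9, 10 and 6 of 10 across labelled libraries 1 to 4. Over all genes tested, 44.0%, 25.6%, 43.6% and 26.0% were above every control in those libraries, so that measure was also raised over the transcriptome in libraries 1 and 3. Cdkn1a was 11.4, 6.12, 16.4 and 4.3 times its control mean in labelled libraries 1 to 4, and Trp53inp1 6.98, 2.88, 6.26 and 1.22 times. Mdm2 followed another order, at 2.77, 1.85, 1.97 and 1.2 times, with labelled library 3 close to labelled library 2.

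Ratios between members in 1 library do not depend on how that library was scaled. Cdkn1a relative to Ccng1 was 0.17, 0.0912, 0.135 and 0.114 in controls 1 to 4 and 0.766, 0.559, 0.953 and 0.374 across labelled libraries 1 to 4. The ratio was thus higher in every labelled library than in any control. For Phlda3, Bax and Eda2r the ratio to Ccng1 was also above every control in all 4 labelled libraries. It was so for 3 of 4 with Trp53inp1 and Sesn2, for 2 with Mdm2 and for 0 with Zmat3 and Aen. Ccng1 is itself a member, with a ratio of means of 1.72, so these ratios describe which members differed more than Ccng1. The share of all genes with such a ratio was not computed, so the counts are a description. By level per length, Cdkn1a took places 6 to 8 of the 10 members among controls and places 2 to 4 among labelled libraries. Aen took places 2 to 4 among controls and 6 or 7 among labelled libraries.

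The genes whose profile over the 8 libraries was most like that of Cdkn1a, by the mean absolute difference of log2 values scaled to unit SD, were Sod3 (0.10), Plin2 (0.11), Serpina3n (0.12), Homer3 (0.12) and Gtpbp2 (0.13). Sod3 encodes the extracellular superoxide dismutase, Plin2 a lipid droplet coat protein and Serpina3n an acute phase protease inhibitor. Sod3 rose (log2 fold change 1.20, adjusted p = 0.0443). Serpina3n, at 1.14 to 1.40 among controls and 20.3, 5.97, 26.4 and 6.97 across labelled libraries 1 to 4, missed the threshold (log2 2.55, adjusted p = 0.0594). Of the other members, Ccng1 came at place 25 in likeness to Cdkn1a, Bax at 51, Phlda3 at 103 and Eda2r at 126. Trp53inp1 came at 208, Sesn2 at 266 and Zmat3 at 435, while Mdm2 came at 1492 and Aen at 3747. For Phlda3 the most alike were Lama4 (0.12), Efna1 (0.13), Tspan32 (0.14), Klhl13 (0.15) and Vasp (0.15), and Cdkn1a came at place 35. These places describe 8 libraries in 2 groups, where any gene with a difference between the groups shares much of its profile.

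Trp53, the gene of p53 itself and named here after its values were seen, was at 3.36, 3.41, 1.81 and 4.95 among controls and at 11.9, 5.45, 11.4 and 5.2 among labelled libraries. The groups did not overlap, and the log2 fold change of 1.08 (SE 0.32) missed the threshold (adjusted p = 0.110). Of the 20 genes listed as p53 and its regulators, 13 were tested and 0 passed in either direction (limma). At an unadjusted p under 0.05, 5 were higher and 3 lower. The median log2 fold change of the list was 0.03, and -0.08 under median-ratio and quantile scaling. It was 0.63 with equal sums outside the digestive enzymes and 0.99 with implied fragment totals. Trp63, Trp73 and Cdkn2a were listed at 0 in at least 1 library. Rpl5 and Rpl11, ribosomal proteins that bind and inhibit Mdm2, had the highest levels of the list. Rpl11 was at 280.0 ± 13.3 among controls and 163 ± 52.0 among labelled libraries (mean ± SD, n = 4 each; log2 -0.83, adjusted p = 0.119), and Rpl5 differed by -0.63 (adjusted p = 0.162). Both signs turned positive when libraries were scaled to equal sums outside the digestive enzymes (0.08 and 0.28) or to implied fragment totals (0.56 and 0.76).

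Other listed targets of p53 gave no call, with values of both signs. Of 12 listed targets of cell death, 9 were tested, and 4 were higher and 0 lower at an unadjusted p under 0.05, with 0 passing after adjustment and a median of 0.61. Of those 4, Fas and Casp1 reached the mean of 1 only through the labelled group. Perp, a desmosome protein, was at 18.3 ± 1.93 and 14.7 ± 1.28 (log2 -0.30, adjusted p = 0.198), with a positive sign under the same scalings (0.57 and 1.02). Ei24, a protein of the endoplasmic reticulum, was at 13.1 ± 1.07 and 13.7 ± 2.25 (log2 0.05, adjusted p = 0.828), with a negative sign under median-ratio scaling (-0.13). Of 14 listed targets of arrest, 8 were tested, 0 passed and the median was 0.40. At an unadjusted p under 0.05, 1 was higher (Cdkn1b, which is on other lists below too) and 3 were lower. The antiproliferative gene Tob1 was at 31.3 ± 4.58 and 15.8 ± 7.7, without overlap (log2 -1.06, adjusted p = 0.114), and the tetraspanin gene Cd82 at 32.9 ± 4.89 and 23.7 ± 4.29 (log2 -0.46, adjusted p = 0.156). Scaling to implied fragment totals gave both a positive sign (0.26 and 0.89), and equal sums gave one to Cd82 (0.42) but not to Tob1 (-0.19).

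Of 19 listed targets of repair and metabolism, 15 were tested, 5 were higher and 1 lower at an unadjusted p under 0.05, 0 passed and the median was 0.30. Pltp, the phospholipid transfer protein, was at 10.4, 11.1, 9.37 and 10.5 among controls and at 69.7, 22.2, 59.3 and 14.5 among labelled libraries (log2 1.63, SE 0.47, adjusted p = 0.106). Gls2, a glutaminase, was at 33.0, 32.4, 33.9 and 30.7 among controls and at 1.49, 22.5, 3.99 and 35.7 among labelled libraries. Labelled libraries 1 and 3 were far below the controls and labelled library 4 above them all (log2 -1.72, SE 0.78, adjusted p = 0.178). The libraries highest in Cdkn1a were thus the lowest in Gls2.

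**Figure D3:**
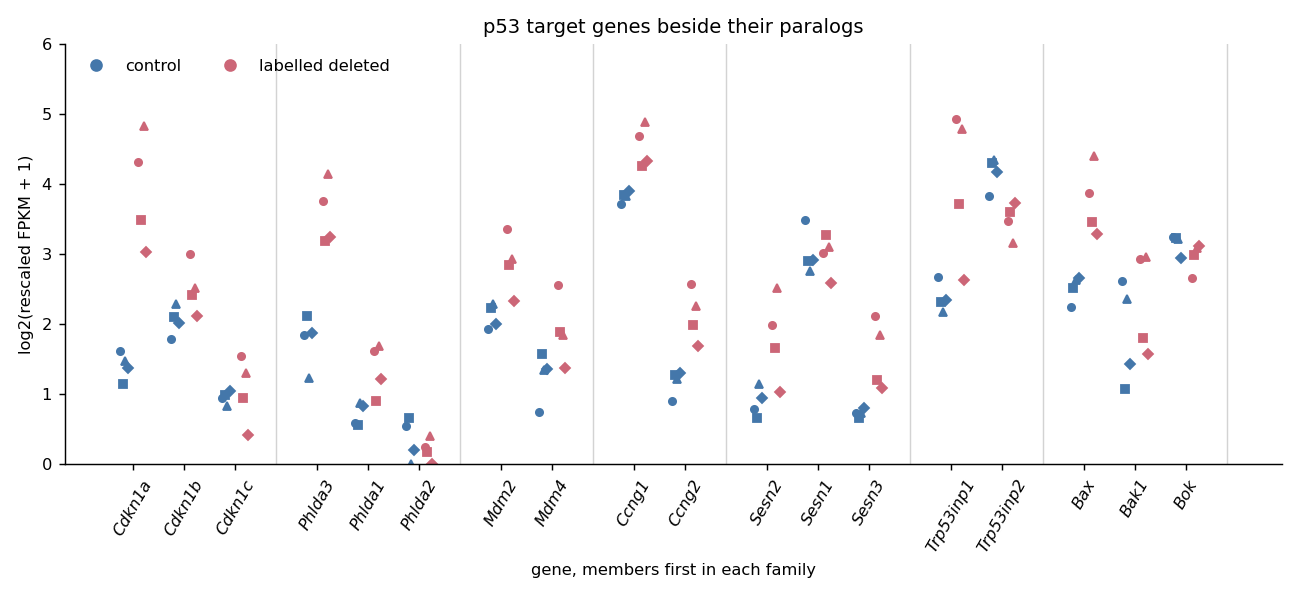
Levels of 7 members and their paralogs in each library, as log2(rescaled FPKM + 1) on the vertical axis; symbols mark libraries 1 to 4. The controls and labelled libraries are apart for both cyclin G genes, while Sesn1 and Bok overlap and Trp53inp2 is lower in the labelled libraries.

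The paralogs of the members did not pass the test, and they differed in direction. Of 18 listed, 14 were tested, 7 were higher and 1 lower at an unadjusted p under 0.05, 0 passed, 5 were higher and 1 lower without overlap, and the median was 0.41. Of the 14, 4 (Cdkn1c, Phlda1, Tnfrsf19 and Sesn3) reached the mean of 1 only through the labelled group, so these counts are partly fixed by that filter, and Phlda1 and Sesn3 are 2 of the 7. Beside Cdkn1a, the CDK inhibitor Cdkn1b (p27) was at 3.18 ± 0.585 and 4.86 ± 1.55 (log2 0.46, adjusted p = 0.162) and Cdkn1c (p57) at 0.944 ± 0.116 and 1.16 ± 0.68 (log2 0.10, adjusted p = 0.802; -0.01 under median-ratio scaling). Beside Phlda3, Phlda1 was at 0.648 ± 0.186 and 1.63 ± 0.629, without overlap (log2 0.65, adjusted p = 0.121), and Phlda2 was too low to be tested (0.298 and 0.161). Trp53inp2 had the opposite sign to Trp53inp1: it was at 13.2, 18.8, 19.3 and 17.0 among controls and at 10.1, 11.1, 7.95 and 12.3 among labelled libraries (log2 -0.67, SE 0.18, adjusted p = 0.103). That sign held under median-ratio (-0.85) and quantile scaling (-0.64) and turned under equal sums (0.19) and implied totals (0.63). Bok, a relative of Bax, was at 7.99 ± 0.867 and 6.87 ± 1.07 (log2 -0.20, adjusted p = 0.368), positive under equal sums (0.61). Among paralogs outside the naming rule, chosen after their values were seen, Ccng2 was at 1.27 ± 0.27 and 3.49 ± 1.16 (log2 0.95, adjusted p = 0.0857) and Sesn3 at 0.661 ± 0.0706 and 2.1 ± 1.06 (log2 0.84, adjusted p = 0.109), both without overlap. Sesn1 was at 7.27 ± 2.01 and 7.1 ± 1.53 (log2 -0.02, adjusted p = 0.945), and its sign turned positive under equal sums (0.79).

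The listed partners and downstream genes of p21 gave no call either. Of 13 listed CDKs, cyclins and Pcna, 8 were tested, 1 was higher and 1 lower at an unadjusted p under 0.05, 0 passed, and the median was 0.25. Cdk4 was at 27.5 ± 3.31 and 42.0 ± 12.8 (log2 0.55, adjusted p = 0.171) and Ccnd2 at 10.7 ± 1.14 and 12.0 ± 1.26 (log2 0.14, adjusted p = 0.467; -0.03 under median-ratio scaling). Of 7 other CDK inhibitors, 3 were tested, 1 was higher at an unadjusted p under 0.05, 0 passed and the median was 0.46. That gene, Cdkn1b, is also the 1 higher target of arrest and 1 of the 7 higher paralogs. Cdkn2c had a log2 fold change of 0.78 (adjusted p = 0.179). p53 lowers many cell division genes through p21 and the DREAM repressor complex. Of 25 such genes listed, 12 were tested, 5 were higher and 0 lower at an unadjusted p under 0.05, 0 passed and the median was 0.49. Cdk1 is 1 of the 5 higher and is also the 1 higher among the CDKs and cyclins above. Of the 12, 4 (Ccna2, Birc5, Ube2c and Cenpa) reached the mean of 1 only through the labelled group, and 2 of them are among the 5 higher, so that count too is partly fixed by the filter. Top2a, a topoisomerase of dividing cells, was at 1.4 ± 0.229 and 2.63 ± 1.11, higher in 4 of 4 (log2 0.56, adjusted p = 0.131), and Cks2 at 1.73 ± 0.861 and 2.9 ± 0.446 (log2 0.57, adjusted p = 0.145).

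Sesn2 is also listed among the targets of ATF4, the factor of the amino acid and endoplasmic reticulum stress response. Of those 15 listed genes, 14 were tested with Sesn2 among them, 2 were higher and 5 lower at an unadjusted p under 0.05, 0 passed and the median was -0.64. The 2 higher, Sesn2 and Atf3, both reached the mean of 1 only through the labelled group. Asns, asparagine synthetase, was at 162 ± 17.7 and 65.1 ± 41.7, without overlap (log2 -1.59, adjusted p = 0.117). Phgdh, an enzyme of serine synthesis, was at 79.1 ± 22.6 and 42.0 ± 24.6 (log2 -1.06, adjusted p = 0.166), positive under implied totals (0.30). The list's median was also positive under equal sums (0.23) and implied totals (0.69). Of 12 immediate early genes, 8 were tested, 4 were higher and 0 lower at an unadjusted p under 0.05, 0 passed and the median was 0.79, with Atf3 again among the 4. Myc (log2 0.03, adjusted p = 0.942) and Ier2 (log2 0.00, adjusted p = 0.993), the most abundant of them, were at 5.95 ± 1.47 and 6.34 ± 2.56, and at 4.86 ± 1.24 and 4.88 ± 1.55.

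Levels of cell type markers also varied between the labelled libraries, for some lists in the order of the p53 target genes and for others not. All 13 acinar markers were tested, none was at 0 in any library, 0 passed (limma), 8 were lower at an unadjusted p under 0.05, and the median log2 fold change was -2.94. Their summed level was 351820 to 500855 among controls and 3668 to 261251 among labelled libraries, and the median marker differed from the control mean by -6.5, -1.11, -3.28 and -0.62 across labelled libraries 1 to 4. Labelled libraries 1 and 3, with the least acinar transcript, were also the 2 highest of the labelled libraries for all 10 members. All 10 macrophage and all 10 fibroblast markers were tested and higher at an unadjusted p under 0.05, with 0 passing, none at 0 and medians of 1.62 and 1.18. The macrophage sum was 107 to 168 among controls and 220 to 865 among labelled libraries, and the fibroblast sum 238 to 339 and 399 to 1376. The median macrophage marker stood 2.57, 0.90, 2.59 and 0.57 above the control mean in labelled libraries 1 to 4, with libraries 1 and 3 the highest as they were for the p53 target genes. Of 12 adipocyte markers 11 were tested, 3 rose (Cd36, Cidec and Plin4, adjusted p = 0.0268, 0.0363 and 0.0423) and 10 were higher at an unadjusted p under 0.05, with sums of 84.8 to 240.0 and 412 to 548 and Cidea at 0 in at least 1 control. Of 10 lymphocyte markers 7 were tested, 0 passed and 4 were higher at an unadjusted p under 0.05, with sums of 40.4 to 164 and 58.2 to 383 and Cd3d, Cd3g and Cd2 at 0 in at least 1 control. Of those 4, 2 (Cd3g and Cd2) reached the mean of 1 only through the labelled group, as did the adipocyte marker Lep. Duct markers (8 of 10 tested, 0 passing, 2 higher and 1 lower unadjusted, none at 0) summed to 251 to 351 and 234 to 374. Islet markers (8 of 10 tested, 0 passing, 1 higher unadjusted, Nkx6-1 and Mafa at 0 in at least 1 library) summed to 559 to 1478 and 763 to 5962. Endothelial markers (9 of 10 tested, 0 passing, 0 higher and 1 lower unadjusted, none at 0) summed to 48.6 to 60.1 and 43.2 to 64.8. The median adipocyte marker differed from the control mean by 1.9, 1.64, 1.32 and 1.44 across labelled libraries 1 to 4. Lymphocyte markers gave 0.32, 0.58, 1.62 and 0.64, and islet markers 2.6, 0.68, -0.02 and -0.26. Duct markers gave 0.59, -0.01, 0.56 and -0.15, and endothelial markers 0.3, -0.06, 0.4 and -0.2. Of these lists, only duct and endothelial markers had libraries 1 and 3 as the 2 highest. The estimate of Pecam1 in labelled library 3 had the status FAIL in the deposited table, and its value was kept. The part of these cells in the levels of the p53 target genes was not tested.

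**Figure D4:**
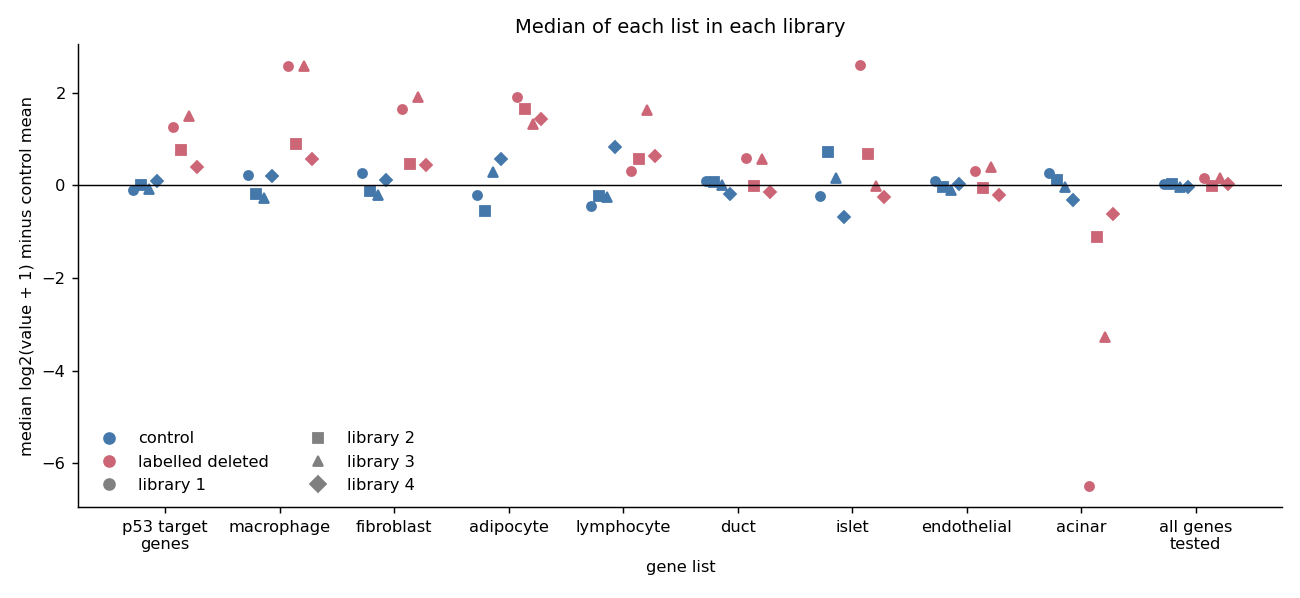
Median over each list's tested genes of log2(rescaled FPKM + 1) minus the control mean (vertical axis), 1 point per library; symbols mark libraries 1 to 4. For the p53 target genes, macrophage and fibroblast markers labelled libraries 1 and 3 are the highest, while for the acinar markers they are the lowest (-6.5 and -3.28).

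Without labelled libraries 1 and 3, the log2 fold change was 1.85 for Cdkn1a (adjusted p = 0.0732) and 1.44 for Phlda3 (adjusted p = 0.171), and the median over the 10 members was 0.52, with 0 members passing. Among the BKD titles alone (1 control against 3) Cdkn1a had 2.43 and Phlda3 1.86 (adjusted p = 0.631 each), and among the ASK and BSH titles (3 against 1) 2.15 and 1.44 (adjusted p = 0.122 and 0.295). In these fits the lone library is assumed to vary like the other group. With the prefix as a covariate the values were 2.29 and 1.65 (adjusted p = 0.195 each). Within each set of titles both differences thus stayed positive and neither call was kept.

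The calls also depended on single libraries. Both genes kept an adjusted p under 0.05 without labelled library 2 (0.0475 for Cdkn1a, 0.0457 for Phlda3) or 4 (0.0232 and 0.0321). They lost it without control 1 (0.0859 and 0.098), control 2 (0.169 and 0.136), control 3 (0.156 and 0.132), control 4 (0.0962 and 0.0937), labelled library 1 (0.139 each) or labelled library 3 (0.0791 and 0.108). Over those 8 fits the log2 fold change moved little, from 2.21 to 2.80 for Cdkn1a and from 1.62 to 1.94 for Phlda3. Without labelled library 4, in which the members were lowest, 9 of the 10 members passed (all but Aen), as did 1366 genes that were higher and 1200 that were lower.

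Scaling shifted most genes in one direction. Over all genes tested, 26 rose and 23 fell. The counts were 18 and 23 with median-ratio scaling, 12 and 18 with quantile normalization, 22 and 0 with equal sums outside the digestive enzymes, and 6 and 0 with implied fragment totals. Over all genes the median was 0.10 as reported, and 0.79 and 1.12 in the last 2 scalings. Relative to that median, Cdkn1a stood at 2.41 as reported and at 2.40 to 2.53 in the 4 other scalings. Phlda3 stood at 1.71 and at 1.70 to 1.81, and the median of the members at 0.83 and at 0.76 to 0.86. All but quantile normalization divide each library by 1 factor, which moves most genes nearly alike. That closeness was therefore largely fixed in advance and is a description, not a test of the calls.

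**Figure D5:**
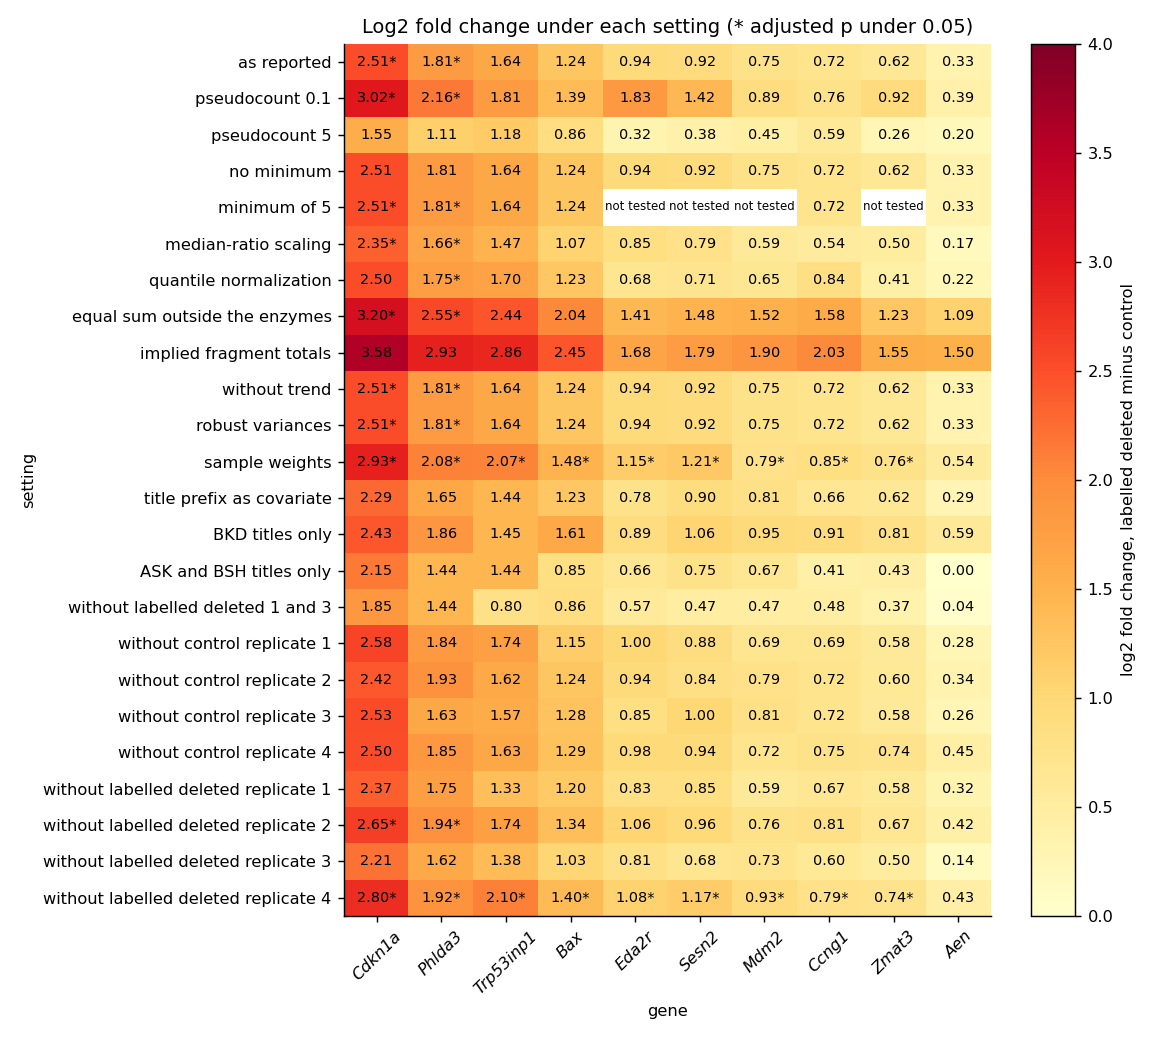
Log2 fold change of each member (columns) under each setting (lines), with a star where the adjusted p was under 0.05; colour runs from 0 to 4 on the log2 scale. No value is below 0, Cdkn1a is the highest in every line, and the stars of members other than Cdkn1a and Phlda3 stand only under sample weights and without labelled library 4.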

How the data were processed

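The authors deposited 1 table of gene FPKM (fragments per kilobase of transcript, scaled per library) with interval bounds and a status for each of 8 libraries of poly(A) RNA. Per the submitters' processing notes, the tools were Cufflinks 2.0.1, TopHat2 2.0.4, CASAVA 1.8 and Bowtie, on mm9 (NCBIM37). Not given in the sources used here: read length, strand, gene model release and scaling option. Cufflinks assigns shared fragments by likelihood, so overlapping genes and near-identical copies are uncertain.

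All values were divided by 100000 (rescaled FPKM), because the deposited FPKM did not have the usual scale. Entries of 14 gene IDs found more than once were summed. The 8 genes that lacked an estimate in at least 1 library, listed there at 0, were dropped, and the values of 31 genes with the status FAIL in at least 1 library were kept. The depth behind a value was read from its deposited interval, whose upper bound was taken as the value plus 2 Poisson standard errors. These implied fragments are not read counts, since an interval can hold more than counting error. The acinar marker Cel, named here after its values were seen, had 7440 to 329000 of them among controls, at 21342 to 35882 rescaled FPKM. They do not cover the spread between animals. Because no counts were used, log2(rescaled FPKM + 1) was tested by limma (version 3.58.1, in R 4.3.3) with an intensity trend, two-sided. The fit took the 11860 genes whose mean was at least 1, and Benjamini-Hochberg adjustment ran over all of them, with a threshold of 0.05. A log2 fold change is on that scale and understates the change of low genes. Recovery was measured on simulated data with 50 changed genes of each size among 11860. The share of true changes that this comparison recovered was 6% at log2 0.5, 34% at 1, 74% at 2 and 94% at 3. There were 4 false calls. In that simulation only genes whose control value exceeded 2 on the log2(rescaled FPKM + 1) scale received a change. Both groups were given the same spread. Cdkn1a, Phlda3, Zmat3, Sesn2 and Eda2r lay below that level in the controls, so these shares do not describe them.

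The members and lists were chosen with earlier results of these data known. Genes were named by rule: the 10 members, Gata6, and, where a list's genes are named, up to 4 passing genes of each other list or else the 2 of highest mean, paralogs of passing members, and the 5 genes most like Cdkn1a and Phlda3. Alternatives were other pseudocounts, minimums, scalings, variance models and weights, the title prefix as a covariate or split, and libraries left out. Promoter windows were RefSeq's on GRCm38.p6, scanned along the strand of the gene, which for a palindromic consensus finds the matches of both strands. Nothing in the labels says how the animals were related. The p-values set the difference between the groups against the spread within them, for these 8 animals. That spread is pooled, as if both groups varied alike, though Cdkn1a had an SD of 0.362 among controls and 9.09 among labelled libraries (rescaled FPKM).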

Additional observations from a re-analysis of the deposited data

Results flagged for a closer look

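Zmat3 in the controls had 1 library apart from the others. Control 4 had 1.93 rescaled FPKM, against 1.09, 1.19 and 1.08 in controls 1 to 3, and the gap to the nearest was 0.871 of the group's range, above Dixon's critical value for 4 values. It was the only one of 20 groups examined (10 genes in each of the 2 groups of libraries) to pass that value, and chance gives about 1 in 20. Without control 4 the log2 fold change of Zmat3 was 0.74 in place of 0.62, and its adjusted p did not pass in either fit (limma, Benjamini-Hochberg).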

How the results depend on the processing

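Of the 10 p53 target genes, 2 passed as reported. The number passing was 0 with a pseudocount of 5, with no minimum, with implied fragment totals, with the title prefix as a covariate, without labelled libraries 1 and 3, and in the BKD titles or the ASK and BSH titles alone. It was 1 (Phlda3) with quantile normalization and 9 with sample weights, and 0 to 9 when 1 library was left out. No member had a negative log2 fold change in any of the 23 alternatives in which it was tested, and 0 passed as lower. The median over the members was 0.93 as reported, 1.4 with a pseudocount of 0.1, 0.52 with 5, 1.44 with a minimum of 5 (6 members tested), 1.55 with equal sums, 1.97 with implied totals, 0.52 without labelled libraries 1 and 3, and 0.77 to 1.12 when 1 library was left out. Genes called higher numbered 26 as reported, 14 with a pseudocount of 5, 12 with quantile normalization, 6 with implied totals, 2316 with sample weights, 4 with the prefix as covariate, 0 in the BKD titles, 11 without labelled libraries 1 and 3, 89 in the ASK and BSH titles, and 7 to 1366 when 1 library was left out. Genes called lower numbered 23 as reported, 11 with no minimum, 15 with a minimum of 5, 0 with equal sums or implied totals, 1478 with sample weights, 1 with the prefix as covariate, 2 without labelled libraries 1 and 3 or in the ASK and BSH titles, and 3 to 1200 when 1 library was left out. The cause of these shifts was not tested. No paired analysis was possible because the labels give no replicate numbers and tie no library of one group to one of the other; the numbers used here only name the libraries. Some control values rest on few implied fragments: as few as 5.83 for Cdkn1a, 5.88 for Phlda3 and 0.662 for Eda2r. The totals per library overlapped between the groups, at 6020901 to 7304521 among controls and 4815873 to 7451554 among labelled libraries.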

Other observations

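Gtpbp2 and Homer3 were picked for their likeness to Cdkn1a over the 8 libraries, so their values are a description. Gtpbp2, a GTP-binding protein that acts in the rescue of stalled ribosomes, was at 6.29, 5.23, 6.24 and 7.66 in controls 1 to 4 and at 17.2, 12.5, 20.9 and 12.1 in the 4 labelled libraries (log2 fold change 1.16, limma adjusted p = 0.0605). Homer3, a scaffold protein, was at 1.54 to 1.72 in the 4 controls and at 4.21, 3.82, 5.2 and 2.63 in the labelled ones (log2 0.89, adjusted p = 0.0693).

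Atf3, a stress-induced transcription factor that is on the lists of ATF4 targets and of immediate early genes and is named here after its values were seen, was at 0.247, 0.527, 0.44 and 0.923 in controls 1 to 4. It was at 4.0, 1.36, 6.49 and 0.798 in the labelled libraries (log2 1.23, SE 0.43, adjusted p = 0.126). Labelled libraries 1 and 3 had the most of it, and labelled library 4 lay within the controls' range. Gdf15, a secreted p53 target too low to be tested and likewise named after its values were seen, was at 0.111, 0, 0 and 0.322 in the controls and at 1.25, 1.03, 3.85 and 0.0946 in the labelled libraries.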
